A study of Mus musculus with 12 samples.

Results

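The glutathione S-transferases (GST), UDP-glucuronosyltransferases (UGT) and sulfotransferases (SULT), the enzymes of conjugation, were followed across 11 mouse liver transcriptomes. They were taken from the deposited gene table as the protein-coding genes whose symbols begin with Gst and a class letter of a, m, o, p, t, k or z, with Ugt1, Ugt2 or Ugt3, or with Sult1 to Sult5. The rule found 62 genes among the 55401 of the table, 22 GST, 21 UGT and 19 SULT genes, and it used no expression value. Of these, 50 passed the filter on low counts, 20 GST, 19 UGT and 11 SULT genes, and 2, Sult1c1 and Ugt2a2, had a count of 0 in every library. All 62 lie at the same place in the GRCm38 (mm10) annotation.

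The samples were labelled as livers of male C57BL/6 mice of 8 to 10 weeks, with a genotype and a feeding. LKO mice (LPCAT3flox/flox-cre) carried Lpcat3 flanked by loxP sites together with a cre transgene, and FLOX mice (LPCAT3flox/flox) carried the same floxed gene without cre, so the floxed allele was shared by all 4 groups. ALD stands for the NIAAA diet, an ethanol feeding model of alcoholic liver injury, and NC for control. LKO-ALD held 3 libraries, LKO-NC 2, FLOX-ALD 3 and FLOX-NC 3, with the third LKO-NC sample not analysed here. The labels state neither the promoter that drives cre nor the length and dose of the feeding, and they do not say whether replicates were separate animals, so that a p-value here sets a difference against a spread among samples that may be technical.

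Conjugation is the step of detoxification in which a polar group is joined to a foreign compound, a hormone or a waste product. GST enzymes attach the tripeptide glutathione to reactive electrophiles, among them the aldehydes formed by lipid peroxidation. UGT enzymes of the endoplasmic reticulum transfer glucuronic acid from UDP-glucuronate to bilirubin, steroids and drugs, and cytosolic SULT enzymes transfer sulfate from the donor PAPS to phenols, steroids and bile acids. In mouse liver the alpha and mu classes of GST are known to be inducible through the antioxidant response factor NRF2 and the xenobiotic receptors, and several Sult2a and Sult3a genes are known to be expressed mainly in females.

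The libraries held 39063371 to 73557868 estimated counts each. Lpcat3, the targeted gene, was at 4.41 to 7.95 FPKM in LKO-ALD and 23.3 and 26.9 FPKM in LKO-NC, against 15.4 to 24.2 FPKM in FLOX-ALD and 39.0 to 52.5 FPKM in FLOX-NC, so on each feeding every LKO library was below every FLOX library. The 6 hepatocyte markers found in the table summed to 28807 to 56557 FPKM, as the tissue label states. FLOX-ALD replicate 1 stood apart. It is labelled male, yet the Y-linked transcripts Ddx3y, Eif2s3y, Kdm5d and Uty were at 0 in this library alone. The X-linked transcript Xist was at 45.8 FPKM in it and at most 0.294 FPKM in the other 10. The 12 female-biased liver genes summed to 2997 FPKM in it against 6.96 to 42.8 FPKM in the other 10. The family sums, the counts of calls and the folds of the members that passed are given with and without it. Mitochondrial transcripts took 22.3% and 26.4% of the counts in FLOX-ALD replicates 2 and 3 and 25.3% in LKO-NC replicate 1, against 12.1% to 15.4% in the other 8 libraries. In bulk tissue, fewer cells of a type and less RNA per cell cannot be told apart.

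Stretches of 300 bases around the start site are printed for the 4 neighbouring Gstm genes and Gstt3, which rose on the diet, and for Sult3a1, which set FLOX-ALD replicate 1 apart. They are RefSeq sequences of build GRCm38.p6 and run from 250 bases before to 50 bases after the start, 5′ to 3′ on the gene's strand. Capitals mark every match, on either strand, to 3 motifs that were searched: the core of the antioxidant response element TGACNNNGC, the STAT5 element TTCNNNGAA and the xenobiotic response element core GCGTG.
Gstm1 (chr3:108017924-108018223, - strand): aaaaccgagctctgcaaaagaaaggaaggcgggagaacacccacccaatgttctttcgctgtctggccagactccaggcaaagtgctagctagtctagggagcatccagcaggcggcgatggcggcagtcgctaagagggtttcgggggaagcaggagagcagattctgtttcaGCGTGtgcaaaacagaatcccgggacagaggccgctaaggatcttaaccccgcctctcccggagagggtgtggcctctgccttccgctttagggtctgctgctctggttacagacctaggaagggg
Gstm2 (chr3:107986371-107986670, - strand): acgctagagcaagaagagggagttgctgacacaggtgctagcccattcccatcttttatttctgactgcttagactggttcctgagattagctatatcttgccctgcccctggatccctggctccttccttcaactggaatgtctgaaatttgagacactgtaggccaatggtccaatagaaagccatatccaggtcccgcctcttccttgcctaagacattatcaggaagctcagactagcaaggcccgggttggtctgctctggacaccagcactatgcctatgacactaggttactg
Gstm3 (chr3:107969125-107969424, - strand): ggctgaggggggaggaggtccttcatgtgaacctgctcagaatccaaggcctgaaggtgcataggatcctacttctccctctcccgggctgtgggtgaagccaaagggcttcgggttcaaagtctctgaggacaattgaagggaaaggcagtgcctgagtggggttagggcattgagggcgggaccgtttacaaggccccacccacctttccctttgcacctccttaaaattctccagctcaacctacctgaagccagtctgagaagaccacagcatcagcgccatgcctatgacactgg
Gstm4 (chr3:108044810-108045109, - strand): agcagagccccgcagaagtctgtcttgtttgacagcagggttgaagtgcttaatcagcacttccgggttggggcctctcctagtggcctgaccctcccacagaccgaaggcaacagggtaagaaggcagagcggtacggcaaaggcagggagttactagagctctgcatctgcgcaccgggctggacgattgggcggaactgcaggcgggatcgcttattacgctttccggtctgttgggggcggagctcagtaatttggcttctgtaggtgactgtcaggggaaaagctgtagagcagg
Gstt3 (chr10:75781365-75781664, - strand): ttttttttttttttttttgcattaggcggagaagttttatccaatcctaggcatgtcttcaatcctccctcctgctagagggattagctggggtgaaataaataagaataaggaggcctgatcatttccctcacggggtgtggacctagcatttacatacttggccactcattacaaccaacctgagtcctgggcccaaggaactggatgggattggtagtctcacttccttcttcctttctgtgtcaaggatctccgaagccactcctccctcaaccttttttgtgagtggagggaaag
Sult3a1 (chr10:33857472-33857771, + strand): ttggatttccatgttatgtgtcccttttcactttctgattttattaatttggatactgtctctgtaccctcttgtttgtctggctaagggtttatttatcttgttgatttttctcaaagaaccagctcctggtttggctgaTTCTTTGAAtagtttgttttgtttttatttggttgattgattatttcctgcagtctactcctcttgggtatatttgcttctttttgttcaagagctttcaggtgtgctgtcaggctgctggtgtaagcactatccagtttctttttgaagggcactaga
Among these 6 windows, Gstm1 held a GCGTG and Sult3a1 held a STAT5 element, and the other 4 held none of the 3 motifs. Windows were found for 54 of the 62 genes. The antioxidant response element core lay in 2 of the 54, Gsta3 and Gstm5, against 12.4% of all 32851 RefSeq promoter windows of the same length. The members gave 1 window each, whereas the 32851 were not reduced to 1 per gene. The STAT5 element lay in 3, Gsta1, Sult3a1 and Ugt1a6a, against 8.3% of all windows, and GCGTG in 10, against 32.4%. These are matches of letters in a short window and say nothing of a factor's binding.

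By level, the GST family was the largest of the 3. Summed over its members it reached 3526 ± 415 FPKM in LKO-ALD and 1978 ± 224 in LKO-NC, against 2995 ± 1407 in FLOX-ALD and 2545 ± 208 in FLOX-NC (SD, with n = 2 for LKO-NC and n = 3 for the others). Every LKO-ALD library, at 3104 FPKM or more, lay above both LKO-NC libraries, at 2137 FPKM or less. Of the FLOX-ALD libraries, replicate 1 was below the FLOX-NC range of 2360 to 2770 FPKM, at 1665 FPKM, and replicates 2 and 3 were above it, at 4467 and 2852 FPKM, so that FLOX-ALD averaged 3660 ± 1142 FPKM without replicate 1 (n = 2). Gstm1 alone made up 31.2% of the family's summed level over all libraries, and together with Gstp1 and Gsta3 68.2%. The SULT sum was 949.7 ± 74.0 FPKM in LKO-ALD and 548 ± 98.4 in LKO-NC, against 812 ± 477 in FLOX-ALD and 599.9 ± 19.2 in FLOX-NC, and Sult1a1 made up 62% of it. Without replicate 1, which had 1340 FPKM, the SULT sum averaged 547 ± 190 FPKM in FLOX-ALD (n = 2), below the FLOX-NC mean. The UGT sum was 919.6 ± 244 FPKM in LKO-ALD and 724 ± 224 in LKO-NC, against 754 ± 259 in FLOX-ALD (825 ± 323 without replicate 1) and 1049 ± 102 in FLOX-NC, with overlap between the feedings in both genotypes. The 7 Ugt2b genes, which conjugate steroids and drugs, summed to 557 ± 185 FPKM in LKO-ALD and 477 ± 137 in LKO-NC, against 475 ± 226 in FLOX-ALD (563 ± 236 without replicate 1) and 722 ± 81.9 in FLOX-NC. Ugt2b5 led the family with 22.8% of its sum.

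**Figure D1:**
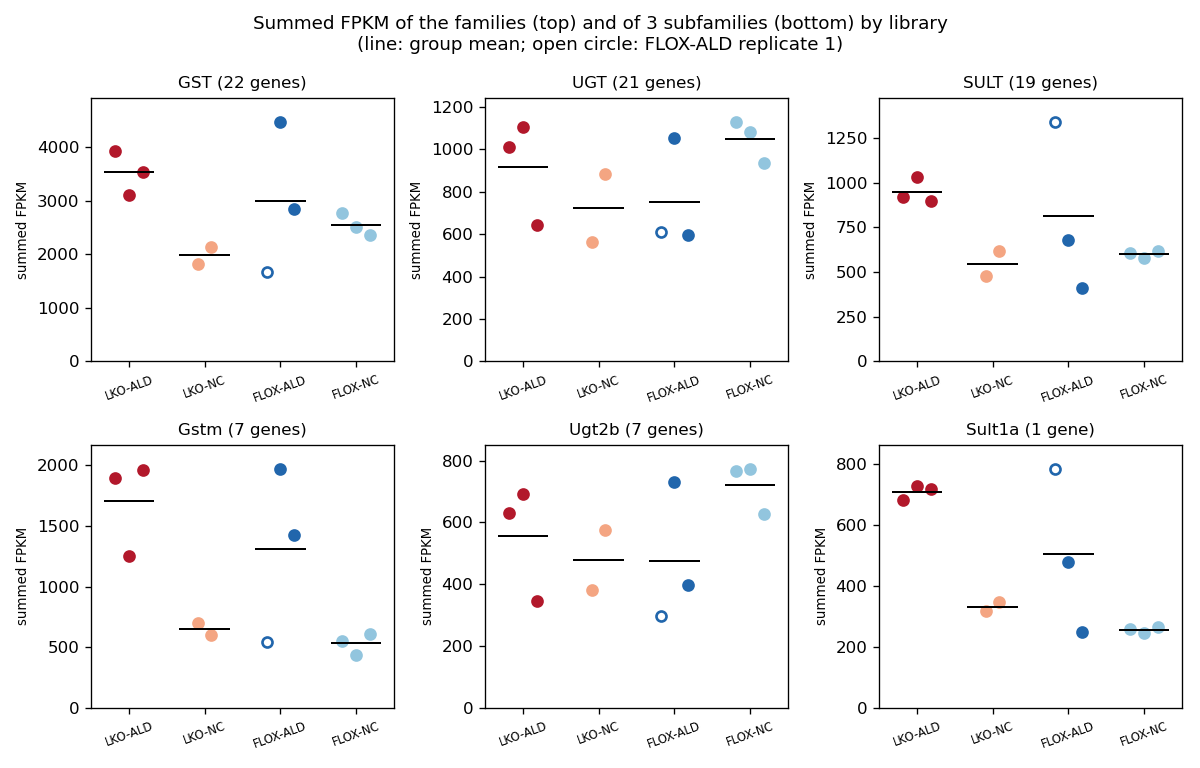
Summed FPKM per library of the 3 families and of the Gstm, Ugt2b and Sult1a subfamilies, by group, with the group mean as a line and FLOX-ALD replicate 1 as an open circle. GST and SULT sums of the 3 LKO-ALD libraries lie above both LKO-NC libraries, while among the FLOX-ALD libraries only replicate 1 lies below FLOX-NC in GST, and only replicate 3 in SULT.

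Most calls among the conjugation genes came from diet averaged over genotypes, a contrast that draws on all 11 libraries. Genotype was tested only within each feeding, on fewer libraries. The counts for diet averaged over genotypes and for genotype are therefore not from like tests. Averaged over the 2 genotypes, 8 of the 50 tested genes rose and 1 fell at an edgeR adjusted p under 0.05, where 2.2% of all 19014 tested genes rose and 2.41% fell. The risers were 7 GST genes, Gsta2, Gsta4, Gstm1, Gstm2, Gstm3, Gstm4 and Gstt3, and 1 sulfotransferase, Sult1a1. The gene that fell was Ugt2b38. Without FLOX-ALD replicate 1 there were again 8 higher and 1 lower, where 1.43% of all tested genes rose and 1.87% fell. Gsta4 and Sult1a1 no longer passed, at edgeR adjusted p of 0.061 and 0.059, and Sult1e1 and Sult3a1 passed in their place. Of these 8, Sult3a1 had 0 to 4 counts in the NC libraries and was kept for testing by its ALD counts alone. Its call is therefore no separate support for a rise. A fit that left out an LKO-NC library held 1 library in that group. The count of members called was far lower when some of the libraries other than FLOX-ALD replicate 1 were left out. It was 1 without LKO-NC replicate 1, 2 without FLOX-NC replicate 2, LKO-ALD replicate 1, LKO-ALD replicate 3 or LKO-NC replicate 2, and 3 without FLOX-NC replicate 1 or 3, where 0.86% to 2.92% of all tested genes were called, although each of the 9 kept its direction in all 11 such fits.

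The mu class gave the clearest group. Its 7 genes lie within 149 kb of chromosome 3 (chr3:107895821-108044894, mm10), in the order Gstm5, Gstm7, Gstm6, Gstm3, Gstm2, Gstm1 and Gstm4. All but Gstm5 lie on the minus strand. The last 4, which are neighbours, all rose, and the first 3 did not pass the test, at log2 fold changes of 0.20, 0.07 and 0.07. Gstm1, the main mu-class transferase of mouse liver, had 2221, 1396 and 2352 CPM (counts per 1e6 of the library) in LKO-ALD and 668, 2304 and 1999.8 CPM in FLOX-ALD, against 734 and 756 CPM in LKO-NC and 648, 514 and 739.6 CPM in FLOX-NC. Every ALD library but FLOX-ALD replicate 1 was above every NC library. The log2 fold change was 1.40 ± 0.31 (SE, edgeR adjusted p 0.027), and 1.59 ± 0.22 (adjusted p 0.0053) without that library.

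Gstm2, another mu-class transferase, had 129.9, 70.5 and 144 CPM in LKO-ALD and 75.9, 111 and 45.1 CPM in FLOX-ALD, against 40.8 and 38.6 CPM in LKO-NC and 37.4, 25.7 and 36.7 CPM in FLOX-NC. All 6 ALD libraries lay above all 5 NC libraries, with FLOX-ALD replicate 3 the lowest of the 6 (log2 fold change 1.37 ± 0.25, edgeR adjusted p 0.015, and 1.38 ± 0.28, adjusted p 0.024, without FLOX-ALD replicate 1). Gstm2 passed in 9 of the 11 fits that left out a library. Gstm3 had 274, 113 and 313 CPM in LKO-ALD and 53.1, 275 and 62.8 CPM in FLOX-ALD, against 49.5 and 21.9 CPM in LKO-NC and 30.2, 13.4 and 18.7 CPM in FLOX-NC. Again no ALD library overlapped an NC library, but FLOX-ALD replicates 1 and 3 were close to LKO-NC replicate 1 (log2 fold change 2.68 ± 0.55, adjusted p 0.028, and 2.87 ± 0.51, adjusted p 0.022, without FLOX-ALD replicate 1). Gstm4 had 50.3, 39.7 and 33.8 CPM in LKO-ALD and 12.1, 62.5 and 11.1 CPM in FLOX-ALD, against 8.73 and 9.22 CPM in LKO-NC and 9.28, 7.35 and 9.81 CPM in FLOX-NC. The 3 LKO-ALD libraries and FLOX-ALD replicate 2 were well above the rest, and the other 2 FLOX-ALD libraries only just above the NC libraries (log2 fold change 1.95 ± 0.45, adjusted p 0.039, and 2.14 ± 0.39, adjusted p 0.023, without FLOX-ALD replicate 1).

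**Figure D2:**
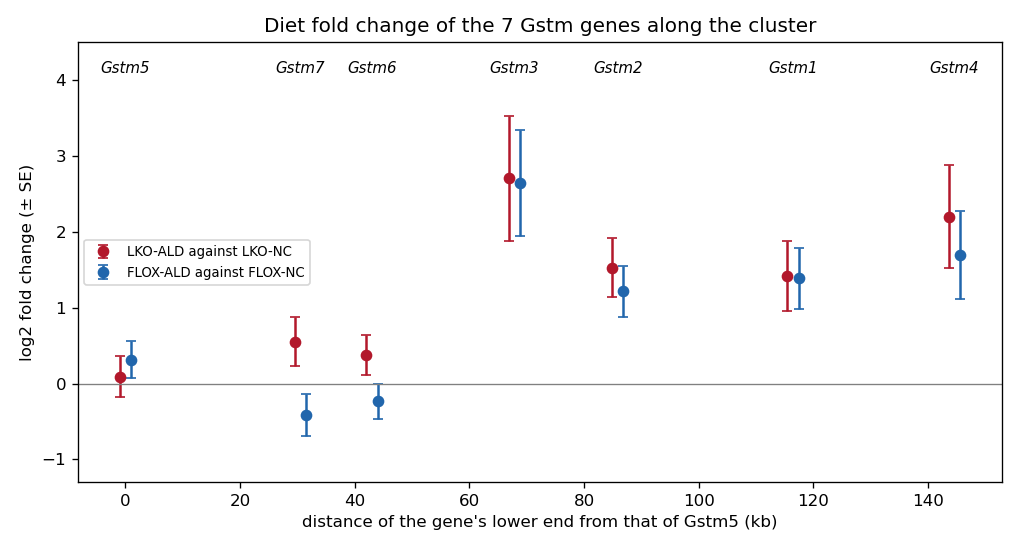
Log2 fold change for diet (± SE) of the 7 Gstm genes, in LKO mice (red, n = 3 and 2) and FLOX mice (blue, n = 3 and 3), at their distance along chromosome 3 from Gstm5. Gstm3, Gstm2, Gstm1 and Gstm4 lie between 1.21 and 2.71 in both genotypes, above the other 3 genes.

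A pair of pseudogenes of the class moved in the same direction. Gstm2-ps1 had a log2 fold change of 1.52 (edgeR adjusted p 0.038) and Gm8834 of 1.54 (adjusted p 0.045) for diet averaged over genotypes, and of 1.72 and 1.73 without FLOX-ALD replicate 1. They share sequence with the coding genes, as 17.3% of the 50-base windows of the Gstm1 transcript are also in Gstm2-ps1 and 16% of those of Gstm3 in Gm8834. How the reads of shared stretches were divided is not given in the sources used here. Gstm4 shared no window with any other gene.

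Gstt3, a theta-class transferase on chromosome 10 (chr10:75774115-75781414), had the lowest adjusted p of all the members. It stood at 124, 103 and 102 CPM in LKO-ALD and 93.0, 71.4 and 17.4 CPM in FLOX-ALD, against 8.12 and 13.9 CPM in LKO-NC and 9.54, 7.06 and 16.9 CPM in FLOX-NC. No ALD library overlapped an NC library, although FLOX-ALD replicate 3 was scarcely above FLOX-NC replicate 3. The log2 fold change was 2.88 ± 0.43 (edgeR adjusted p 0.0094), and 2.66 ± 0.40 (adjusted p 0.012) without FLOX-ALD replicate 1, and Gstt3 passed in 10 of 11 fits that left out a library, all but the one without LKO-NC replicate 1, where its adjusted p was 0.065. It was also the only member that edgeR called in a single genotype with all libraries: between LKO-ALD and LKO-NC the log2 fold change was 3.31 ± 0.66 (adjusted p 0.0495). Its theta-class relatives Gstt1, at log2 fold change 0.16, and Gstt2, at 0.18, did not pass.

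The alpha class was divided. Gsta4, known for conjugating 4-hydroxynonenal from oxidized lipids, had 47.2, 34.2 and 43.8 CPM in LKO-ALD and 35.6, 48.5 and 28.9 CPM in FLOX-ALD, against 12.9 and 31.7 CPM in LKO-NC and 22.7, 14.2 and 18.2 CPM in FLOX-NC. Within each genotype the feedings did not overlap (log2 fold change 0.97 ± 0.24, edgeR adjusted p 0.041, and 0.99 ± 0.26, adjusted p 0.061, without FLOX-ALD replicate 1). Gsta2, an inducible alpha-class transferase, had 40.5, 12.0 and 33.1 CPM in LKO-ALD and 14.1, 70.2 and 13.3 CPM in FLOX-ALD, against 7.99 and 5.78 CPM in LKO-NC and 4.998, 2.71 and 4.86 CPM in FLOX-NC. All ALD libraries were above all NC libraries, with FLOX-ALD replicate 2 the highest (log2 fold change 2.50 ± 0.55, adjusted p 0.035, and 2.69 ± 0.51, adjusted p 0.029, without FLOX-ALD replicate 1). Gsta3, the most abundant alpha-class gene here, ran from 425 to 943 CPM on ALD and from 301 to 866 CPM on NC, and its log2 fold change of 0.15 ± 0.28 did not pass. Gsta1 had 5.215, 2.33 and 7.79 CPM in LKO-ALD and 33.2 and 5.23 CPM in LKO-NC, against 2.04, 10.3 and 2.95 CPM in FLOX-ALD livers and 1.95, 0.496 and 0.728 CPM in FLOX-NC. LKO-NC replicate 1 was the highest by far, and of the Gsta1 transcript 89.7% of windows are shared with other genes, chiefly Gm3776. Of the Gsta2 transcript 64.2% are shared, chiefly with Gsta1.

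The remaining GST classes did not pass for diet averaged over genotypes. Gstp1, the pi-class transferase and the second most abundant member of the family, had 622, 492 and 438 CPM in LKO-ALD and 213, 973 and 625 CPM in FLOX-ALD, against 287 and 407 CPM in LKO-NC and 1025, 1002 and 606 CPM in FLOX-NC. FLOX-ALD replicate 1 was the lowest library of all (log2 fold change 0.02 ± 0.33, and 0.22 ± 0.24 without it). Of the Gstp1 transcript 62.3% of windows are shared with Gstp2, and the pseudogene Gstp-ps was assigned 6071 to 27668 counts, so the level of Gstp1 is uncertain. The zeta-class Gstz1 of tyrosine breakdown, the kappa-class Gstk1 and the omega-class Gsto1 had log2 fold changes of 0.12, -0.10 and -0.18.

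**Figure D3:**
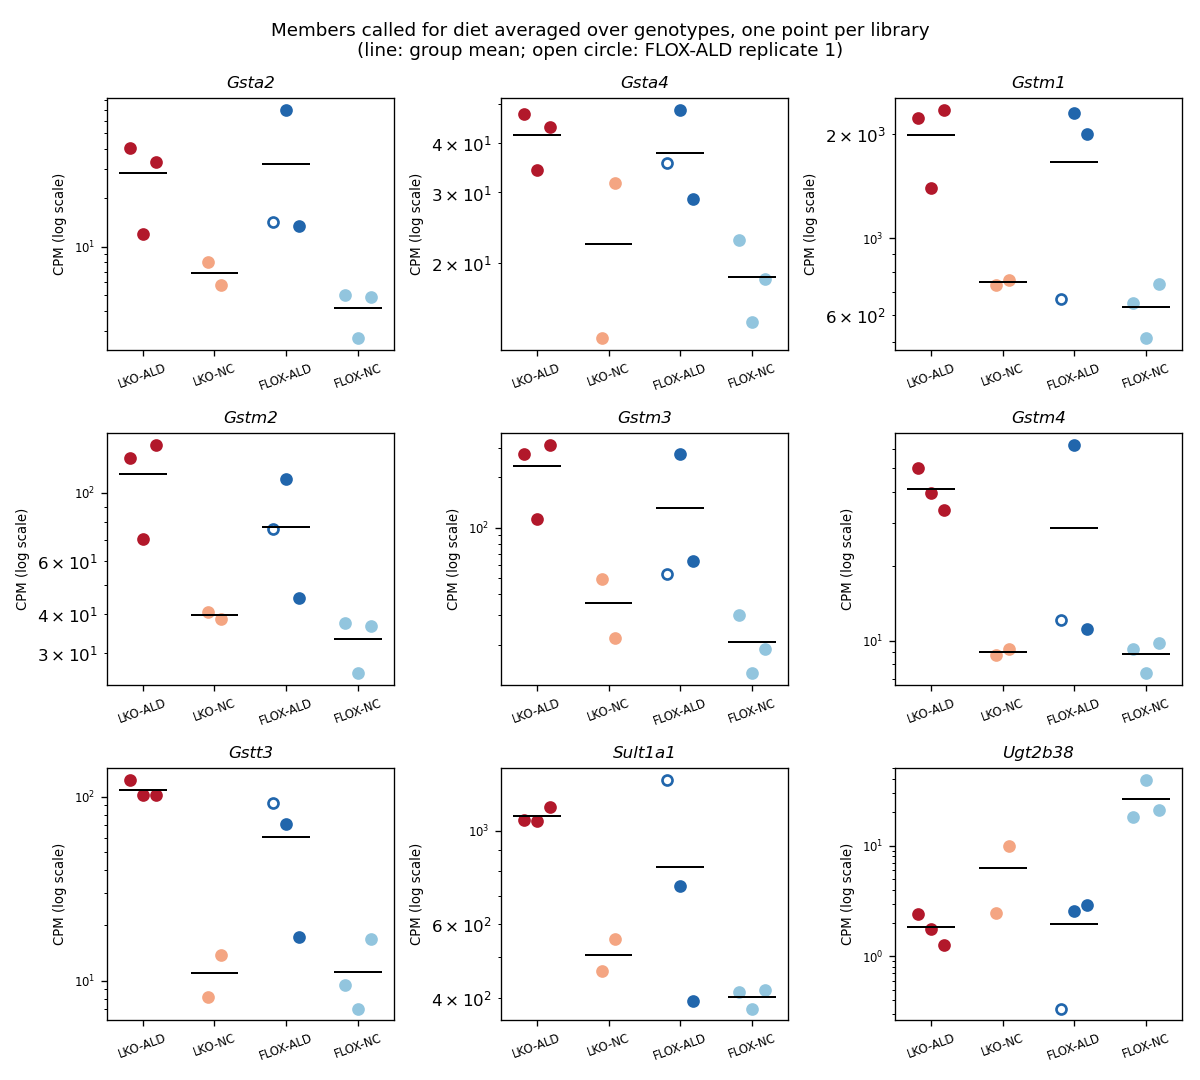
CPM on a log scale in each library for the 9 genes called for diet averaged over genotypes, by group, with group means as lines and FLOX-ALD replicate 1 as an open circle. Gsta2, Gstm2, Gstm3, Gstm4 and Gstt3 show no overlap between ALD and NC libraries, while Gstm1, Gsta4, Sult1a1 and Ugt2b38 overlap in at least 1 library.

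Sult1a1, which sulfates simple phenols, was the sulfotransferase with the highest level. It had 1058, 1053 and 1135 CPM in LKO-ALD and 1322, 738 and 393 CPM in FLOX-ALD, against 462 and 551 CPM in LKO-NC and 412, 377 and 417 CPM in FLOX-NC. The LKO-ALD libraries were close together and above all NC libraries, whereas the FLOX-ALD libraries spread from within the FLOX-NC range to the highest of all, replicate 1. The log2 fold change was 1.06 ± 0.27 (edgeR adjusted p 0.046), and 0.80 ± 0.21 (adjusted p 0.059) without that library. Sult1e1, the estrogen sulfotransferase, had 8.24, 1.65 and 7.99 CPM in LKO-ALD and 6.90, 0.684 and 0.282 CPM in FLOX-ALD, against 0.282 and 0.209 CPM in LKO-NC and 0.377, 0.207 and 0.688 CPM in FLOX-NC. The LKO feedings did not overlap and those of FLOX did. Averaged over genotypes its log2 fold change was 3.61 ± 0.90 (adjusted p 0.0503), and without FLOX-ALD replicate 1 it passed, at 2.41 ± 0.53 (adjusted p 0.034), as did its difference between LKO-ALD and LKO-NC, at 4.6 ± 0.84 (adjusted p 0.029).

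Sult2a8, a bile acid sulfotransferase of mouse liver and the second most abundant SULT gene, had lower values on the diet in FLOX mice. It had 326, 448 and 219 CPM in LKO-ALD and 154, 329 and 213 CPM in FLOX-ALD, against 229.9 and 526 CPM in LKO-NC and 706, 661 and 649.9 CPM in FLOX-NC. In FLOX mice all 3 ALD libraries lay below all 3 NC libraries, and in LKO mice they overlapped. The log2 fold change between FLOX-ALD and FLOX-NC was -1.53 ± 0.37 and did not pass with edgeR (adjusted p 0.13), whereas DESeq2 called it, and without FLOX-ALD replicate 1 it was -1.31 ± 0.40 (edgeR adjusted p 0.27). Sult1d1, a catecholamine sulfotransferase of mice, ran from 148 to 257 CPM on ALD and from 146 to 234 CPM on NC and did not pass (log2 fold change 0.28 ± 0.17).

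Ugt2b38, on chromosome 5 (chr5:87409942-87424203), was the only UGT gene that edgeR called for diet averaged over genotypes. It had 2.41, 1.78 and 1.28 CPM in LKO-ALD and 0.338, 2.59 and 2.92 CPM in FLOX-ALD, against 2.47 and 9.99 CPM in LKO-NC and 18.3, 39.5 and 21.2 CPM in FLOX-NC. FLOX-NC stood highest, FLOX-ALD replicate 1 lowest, and LKO-NC replicate 1 was at the level of the ALD libraries. The log2 fold change was -2.77 ± 0.55 (edgeR adjusted p 0.025), and -2.51 ± 0.39 (adjusted p 0.010) without FLOX-ALD replicate 1. Of its transcript, 34.2% of the windows are shared with Ugt2b5, a far more abundant gene that ran from 234 to 569 CPM on ALD and from 288 to 635 CPM on NC and did not pass (log2 fold change -0.22 ± 0.27). Ugt2b36 and Ugt2b1, the next most abundant Ugt2b genes by FPKM, had log2 fold changes of -0.33 ± 0.24 and -0.17 ± 0.32 and did not pass.

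Across the tested members of each family, the median log2 fold change for diet averaged over genotypes was 0.16 for GST, 0.52 for SULT and -0.02 for UGT, beside 0.04 over all genes tested. Without FLOX-ALD replicate 1 these medians were 0.21, 0.48 and -0.09, beside 0.03 over all genes. Counting members rather than fitting them, 6 of the 50 had every ALD library above every NC library, Gsta2, Gstm2, Gstm3, Gstm4, Gstt3 and Sult3a1, where 2.25% of all tested genes did, and none had the reverse, where 2.6% of all tested genes did. Without FLOX-ALD replicate 1 Gstm1 joined them, for 7 of 50, where 2.74% of all tested genes did, and again none had the reverse, where 3.39% did. Sult3a1, at 0 to 4 counts in the NC libraries, passed the filter on low counts only through ALD libraries. Its place in these counts is therefore no separate support.

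Taken one genotype at a time, few of these changes passed. Between LKO-ALD and LKO-NC, 1 of 50 members passed, Gstt3, where 0.957% of tested genes did, and 16 of 50 had an unadjusted p under 0.05, where 19.5% of tested genes did. Without FLOX-ALD replicate 1, which changes the shared spread, 2 passed, Gstt3 and Sult1e1, where 1.33% of tested genes did. The call of Gstt3 was lost when any LKO-ALD, LKO-NC or FLOX-NC library was left out, and 5 members passed without FLOX-ALD replicate 2, where 2.39% of tested genes did. Between FLOX-ALD and FLOX-NC no member passed with edgeR, where 0.221% of tested genes did, and 19 of 50 had an unadjusted p under 0.05, where 13.1% of tested genes did. DESeq2 called 9 there, where it called 3.4% of tested genes, and limma voom 0, where it called 0.163%. Without FLOX-ALD replicate 1 edgeR again called 0, where 0.0795% of tested genes passed, and 15 had an unadjusted p under 0.05, where 11.5% of tested genes did. The 4 mu-class risers Gstm1, Gstm2, Gstm3 and Gstm4 had log2 fold changes of 1.42, 1.53, 2.71 and 2.20 between LKO-ALD and LKO-NC. Between FLOX-ALD and FLOX-NC these were 1.39, 1.21, 2.65 and 1.70. The FLOX values without FLOX-ALD replicate 1 were 1.77, 1.23, 3.02 and 2.07. For Gstm3 and Gstm4 the FLOX folds rest largely on FLOX-ALD replicate 2, at 275 and 62.5 CPM. Replicate 1 had 53.1 and 12.1 CPM of these 2 genes, and replicate 3 had 62.8 and 11.1 CPM.

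Genotype, tested only within each feeding, gave no call with edgeR. Between LKO-ALD and FLOX-ALD 0 of 50 members passed, where 0% of tested genes did, and 6 had an unadjusted p under 0.05, where 8.05% of tested genes did. Again 0 passed without FLOX-ALD replicate 1, where 0.0053% of tested genes did, and 7 had an unadjusted p under 0.05, where 10.5% of tested genes did. Every LKO-ALD library lay above every FLOX-ALD library for 5 members and below for 2, where 6.35% and 6.26% of all tested genes did, and without FLOX-ALD replicate 1 for 11 and 4 members, where 12.8% and 12.9% did. The 2 below, Sult2a1 and Sult2a2, are also among the 4. They passed the filter on low counts only through FLOX-ALD libraries, so their place here is no support. DESeq2, which called 0.668% of tested genes, called 1 member, Ugt3a1, whose human counterpart uses N-acetylglucosamine as the sugar. Ugt3a1 had 12.9, 16.7 and 15.6 CPM in LKO-ALD and 4.20 and 9.45 CPM in LKO-NC, against 4.51, 6.39 and 4.18 CPM in FLOX-ALD livers and 13.7, 9.89 and 5.69 CPM in FLOX-NC. All 3 LKO-ALD libraries lay above all 3 FLOX-ALD libraries (log2 fold change 1.58 ± 0.36, edgeR adjusted p 0.37, and 1.52 ± 0.43, adjusted p 0.27, without FLOX-ALD replicate 1). Between LKO-NC and FLOX-NC 0 of 50 passed, where 0.0105% of tested genes did, and 8 had an unadjusted p under 0.05, where 6.52% of tested genes did. There the 19 tested UGT genes had a median log2 fold change of -0.63 beside 0.00 over all tested genes, 18 of 19 being negative, and LKO-NC replicate 1, with its 25.3% of mitochondrial counts, was the lowest library of all for Ugt1a9, Ugt2a3, Ugt2b1 and Ugt3a2. Without that library the UGT median was -0.35, and without LKO-NC replicate 2 it was -0.99. Each of these fits leaves 1 library in LKO-NC, and they tested 20347 and 20571 genes. Of the 19, the 9 Ugt1a genes share 1 locus and much of their sequence, so the 19 are not independent of each other. DESeq2, which called 0.316% of tested genes, called 1 member, Gsta1.

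For the interaction of diet and genotype 0 of 50 members passed with edgeR, where 0.00526% of tested genes did, and 9 had an unadjusted p under 0.05, where 9.37% of tested genes did. Leaving out FLOX-ALD replicate 1, again 0 passed, where 0.0159% of tested genes did, and 11 had an unadjusted p under 0.05, where 10.5% did. DESeq2, which called 0.415% of tested genes, called 1 member, Gsta1. The median over the UGT genes was 0.89 on the log2 scale, beside -0.05 over all tested genes, with 16 of 19 positive. It ran from 0.69 to 1.1 over all other settings of the processing, those that left out 1 library among them. Here too the 19 UGT genes are not independent of each other, as 9 are Ugt1a genes. In FLOX mice the median UGT difference for diet was -0.50 and in LKO mice 0.38. The 2 LKO-NC libraries differed from each other, as Ugt2b1 shows at 109 and 276 CPM.

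FLOX-ALD replicate 1 lay outside the range of the other 10 libraries for 19 of the 50 members, 10 above and 9 below, where it did so for 15.1% of all tested genes. The 10 include Sult2a1 and Sult2a2, which passed the filter on low counts only through FLOX-ALD libraries, and Sult3a1, only through ALD libraries. Their place in this count is no separate support. The sulfotransferases of the Sult2a and Sult3a subfamilies, known for female-biased expression in mouse liver, separated FLOX-ALD replicate 1 most. Sult2a1, a hydroxysteroid sulfotransferase, had 14340 counts in this library and at most 22 in any other. Sult2a2 had 11162 and at most 34, and Sult3a1 had 8560 and at most 57. Sult3a2, Sult2a3, Sult2a5 and Sult2a4 had 418, 138, 65 and 12 counts in it and 0 in the other 10. Sult2a7, at 11 to 94 counts, and Sult2a8 did not share this pattern.

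A count of 0 allows up to 3 counts of the library's total, and some of these genes share sequence: 29.5% of the windows of Sult2a1 are in Sult2a2. Sult3a1 also differed between the feedings among the remaining libraries, at 42, 57 and 55 counts in LKO-ALD and 17 and 7 in FLOX-ALD replicates 2 and 3, against 4 and 0 in LKO-NC and 0, 3 and 0 in FLOX-NC. Sult3a1 passed the filter on low counts only through ALD libraries. Every ALD library was above every NC library, all at or under 57 counts (log2 fold change 3.88 ± 0.95 without FLOX-ALD replicate 1, edgeR adjusted p 0.0498, a fitted value that depends on the prior count). In the same libraries the 12 female-biased genes summed to 8.82 to 42.8 FPKM on ALD and 6.96 to 22.8 FPKM on NC. Of the 10 that were tested 1, Cyp2b9, rose (log2 fold change 4.98 ± 0.69, edgeR adjusted p 0.0061), where 1.43% of all tested genes rose, while 9 had a positive log2 fold change and their median was 1.34. Their part in the Sult3a1 difference was not tested.

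**Figure D4:**
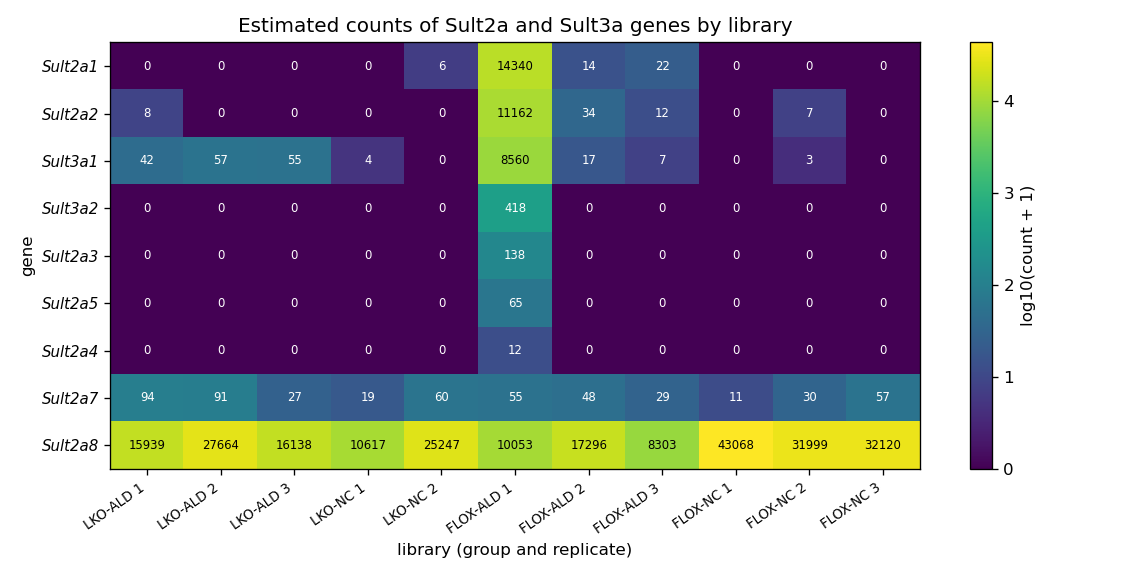
Estimated counts of 9 Sult2a and Sult3a genes (rows) in the 11 libraries (columns), coloured by log10(count + 1), with the count printed in each cell. Sult2a1, Sult2a2, Sult3a1, Sult3a2, Sult2a3, Sult2a5 and Sult2a4 each have their highest count in FLOX-ALD replicate 1, from 12 for Sult2a4 to 14340 for Sult2a1. Elsewhere Sult2a1, Sult2a2 and Sult3a1 reach at most 22, 34 and 57 counts, and Sult3a2, Sult2a3, Sult2a5 and Sult2a4 are at 0. Sult2a8 is high in all libraries.

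The Ugt1a genes are a case in which the level of a single gene is uncertain. They are alternative first exons of 1 locus on chromosome 1 that are spliced to the same 4 last exons, and Ugt1a1, whose product conjugates bilirubin, is the one nearest to them. The first exon of Ugt1a1 ends at chr1:88212871 and the shared second exon starts at chr1:88215044 (mm10, plus strand). The transcript sequence over this junction is printed for the 6 members of highest level, with the last 30 bases of the first exon in lower case and the first 30 bases of the shared exon in capitals (GENCODE M21 transcripts, GRCm38).
Ugt1a1: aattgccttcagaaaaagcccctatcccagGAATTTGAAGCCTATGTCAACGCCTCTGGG
Ugt1a2: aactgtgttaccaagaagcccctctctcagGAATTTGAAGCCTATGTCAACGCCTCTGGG
Ugt1a5: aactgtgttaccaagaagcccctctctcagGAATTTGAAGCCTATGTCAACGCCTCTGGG
Ugt1a6a: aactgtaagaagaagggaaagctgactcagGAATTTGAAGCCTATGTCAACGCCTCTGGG
Ugt1a6b: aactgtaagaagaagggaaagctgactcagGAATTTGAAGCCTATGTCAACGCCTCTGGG
Ugt1a9: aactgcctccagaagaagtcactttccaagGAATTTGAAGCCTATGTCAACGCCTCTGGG
The 30 bases in capitals are identical in all 6, and the 9 transcripts share 1311 bases after the junction. The lower-case bases are also identical between Ugt1a2 and Ugt1a5 and between Ugt1a6a and Ugt1a6b. Of the transcripts' 50-base windows, 58.2% for Ugt1a1 to 100% for Ugt1a6a are found in another gene.

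The sum over the 9 Ugt1a genes was 612 ± 59.7 CPM in LKO-ALD and 407 ± 187 in LKO-NC, against 530.4 ± 170.1 in FLOX-ALD (463 ± 176 without replicate 1, n = 2) and 516 ± 66.0 in FLOX-NC. The feedings overlapped in FLOX mice. In LKO mice all 3 ALD libraries, at 543 CPM or more, were above both NC libraries, at 539.5 CPM or less, by a margin smaller than the spread within LKO-NC. Below the sum, the assigned values moved much more between replicates of 1 group. Ugt1a5 had 116, 20.2 and 36.7 CPM in LKO-ALD and 11.9 and 18.3 CPM in LKO-NC, against 107, 9.09 and 14.3 CPM in FLOX-ALD livers and 58.8, 4.21 and 7.20 CPM in FLOX-NC. Ugt1a2 had 77.8, 26.9 and 47.3 CPM in LKO-ALD and 13.4 and 25.5 CPM in LKO-NC, against 81.7, 47.7 and 0.513 CPM in FLOX-ALD livers and 9.08, 8.10 and 23.7 CPM in FLOX-NC. Neither passed in any comparison of the 4 group means. Ugt1a1 ran from 103 to 399 CPM on ALD and from 149.7 to 372 CPM on NC (log2 fold change -0.33 ± 0.28). Ugt1a10 was at 56.4 CPM in FLOX-ALD replicate 1 and at most 5.34 CPM in the other 10 libraries, whereas Ugt1a1 was lowest in that library. Ugt1a9 had a log2 fold change of 2.50 ± 0.94 between LKO-ALD and LKO-NC, and Ugt1a7c of -3.38 ± 1.29 between FLOX-ALD and FLOX-NC (-3.65 ± 1.61 without FLOX-ALD replicate 1), and neither passed.

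**Figure D5:**
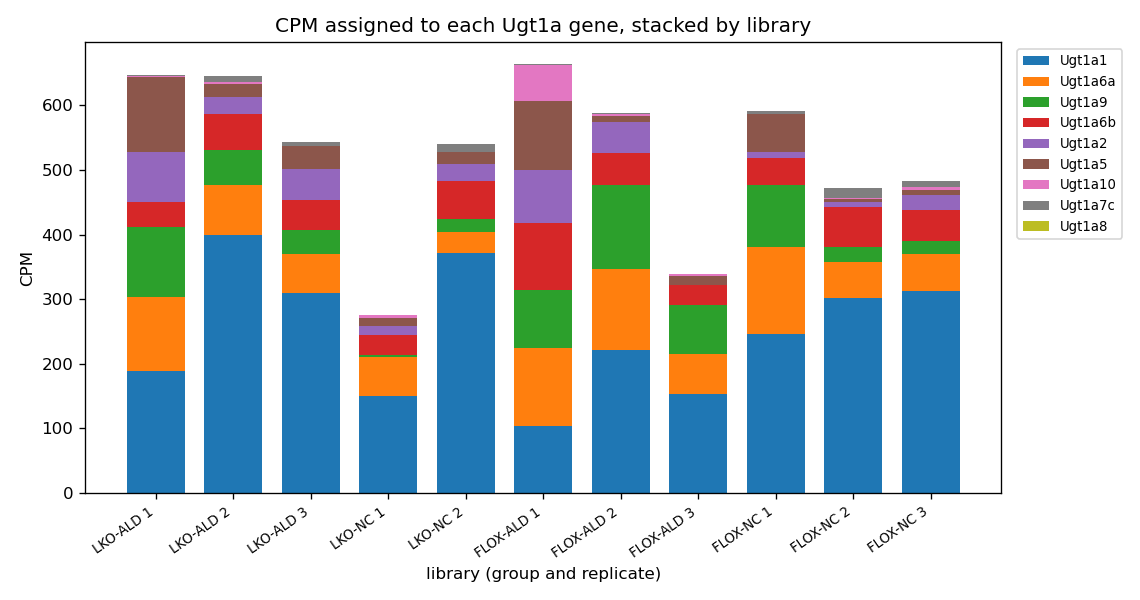
CPM assigned to each of the 9 Ugt1a genes, stacked by library. The sums lie between 275 CPM in LKO-NC replicate 1 and 664 CPM in FLOX-ALD replicate 1, and the part assigned to Ugt1a1, Ugt1a5 and Ugt1a2 differs between replicates of a group.

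Genes that supply, export or regulate the conjugating enzymes were read from lists, for diet averaged over genotypes. In that comparison 2.2% of all tested genes rose and 2.41% fell, and without FLOX-ALD replicate 1 these were 1.43% and 1.87%. These shares stand beside the list counts here and in the following paragraphs. Of 10 genes of glutathione supply none passed, with a median log2 fold change of -0.05. Its most abundant genes were Cth and Cbs, which make cysteine from homocysteine. Of 7 genes listed under UDP-glucuronate supply 1 rose, Slc35b1 (48.0 to 102 CPM on ALD against 20.7 to 43.2 CPM on NC). Slc35b1 is a carrier of the endoplasmic reticulum membrane, and whether it takes part in that supply was not tested. Of 8 tested genes of PAPS supply 1 rose, Bpnt1, which breaks down the by-product of sulfation (28.7 to 51.0 CPM on ALD against 13.1 to 30.2 CPM on NC). Slc35b1 and Bpnt1 did not pass without FLOX-ALD replicate 1. None of 9 conjugate transporters passed, although Abcc2, the canalicular pump for bilirubin glucuronides, was at 15.4 to 42.2 FPKM on ALD and 46.7 to 59.8 FPKM on NC without overlap (log2 fold change -0.62 ± 0.23, edgeR adjusted p 0.13). Of 17 transcription regulators of these genes 4 fell and none rose, with and without that library: Nr1i2, the pregnane X receptor (33.4 to 65.6 CPM on ALD against 94.1 to 132 CPM on NC, log2 fold change -1.11 ± 0.18, edgeR adjusted p 0.0088), Nr0b2, a corepressor of bile acid synthesis (log2 fold change -2.40 ± 0.34), Ppara, a fatty acid sensor (-0.90 ± 0.20), and Bcl6 (-1.18 ± 0.28). For Nr1i2, Nr0b2, Ppara and Bcl6 every ALD library was below every NC library.

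Of 11 known target genes of the xenobiotic and antioxidant receptors 2 rose, and all 11 had a positive log2 fold change, 10 of 11 without FLOX-ALD replicate 1. Cyp2b10, a classic target of the constitutive androstane receptor, was at 125.5, 103 and 78.8 CPM in LKO-ALD and 12.7, 47.1 and 7.36 CPM in FLOX-ALD, against 0 and 0.292 CPM in LKO-NC and 0, 0.083 and 0.526 CPM in FLOX-NC. Nqo1, a classic target of NRF2, was at 14.8, 10.0 and 8.02 CPM in LKO-ALD and 8.05, 13.3 and 4.36 CPM in FLOX-ALD, against 6.13 and 4.504 CPM in LKO-NC and 2.42, 3.35 and 2.21 CPM in FLOX-NC (log2 fold change 1.37 ± 0.29, edgeR adjusted p 0.025). Of 16 other conjugating enzymes 1 rose, Nnmt, which methylates nicotinamide (log2 fold change 2.29 ± 0.35, adjusted p 0.0066), and 1 fell, the indolethylamine methyltransferase Inmt (-1.51 ± 0.29, adjusted p 0.016).

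Markers of other cells and of inflammation were read in the same fit, beside the same shares of all tested genes. The 12 acute phase genes all had positive log2 fold changes with none passing, or 1, Apcs, without FLOX-ALD replicate 1, and their sum ran from 5338 to 67625 FPKM on ALD and from 6252 to 17712 FPKM on NC. The 5 neutrophil markers summed to 4.47 to 33.1 FPKM on ALD and 1.02 to 60.6 FPKM on NC, with Ly6g at 0 in 9 libraries. Of 5 Kupffer cell markers 2 fell, Clec4f and Adgre1, or 4 without FLOX-ALD replicate 1, and the sum ran from 12.7 to 61.5 FPKM on ALD and from 33.0 to 107 FPKM on NC. The 6 bile duct markers summed to 11.01 to 73.3 FPKM on ALD and 33.2 to 62.2 FPKM on NC with none passing, the 4 stellate cell markers to 31.2 to 87.1 FPKM on ALD and 19.1 to 40.8 FPKM on NC with none passing, and without FLOX-ALD replicate 1 Sox9 of the bile duct list and Dcn and Lrat of the stellate list rose. Of 4 endothelial markers Lyve1 rose, and neither of 2 tested intestinal markers passed. The hepatocyte markers summed to 28807 to 50007 FPKM on ALD and 41805 to 56557 FPKM on NC, and none of 6 passed. The 10 male-biased liver genes summed to 152 to 4956 FPKM on ALD and 3502 to 13480 FPKM on NC, with the lowest value in FLOX-ALD replicate 1, and 2 of them, Mup20 and C6, fell without that library. The part of these differences in the changes of the conjugating enzymes was not tested.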

How the data were processed

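Liver RNA was measured by RNA sequencing in 11 of the 12 labelled samples. Per the labels' protocols, a KAPA stranded mRNA kit and a SMARTER library kit were used, and per the submitters' processing notes cutadapt, FastQC, HISAT2, StringTie and edgeR on build mm10, without versions. The authors deposited estimated counts, already whole numbers, and FPKM per gene and transcript. Neither the counting parameters nor the use of strand is stated in those notes.

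Genes were filtered (filterByExpr, minimum count 10, minimum total 15), leaving 19014, and fitted in edgeR 4.0.16 (R 4.3.3) with TMM scaling and a robust quasi-likelihood model of 4 group means (7 residual degrees of freedom, biological coefficient of variation 42.2%). P-values were adjusted by Benjamini-Hochberg over all tested genes, with a threshold of 0.05. SE is the absolute log2 fold change over the square root of F. Diet averaged over genotypes is the mean of the LKO and FLOX diet contrasts, and the interaction is their difference, LKO minus FLOX. Levels within a gene are TMM-scaled CPM, and levels compared or summed across genes are the authors' FPKM. The fit was tested on simulated data. Alternatives were RLE scaling, no filter, DESeq2 1.42.0, limma voom (3.58.1), limma on log2(FPKM + 1) and log2(FPKM + 0.1), a fit of only the 2 groups compared, leaving out each library and, added later, a block for the number in the sample titles. Floors and totals cover counting error only.

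Members and lists were chosen with earlier results of these data known. Members were named if they passed the threshold, were among the 3 most abundant of a family or had the largest fold changes of a comparison, if FLOX-ALD replicate 1 lay far outside the other libraries, or if they belonged to the Ugt1a locus. Any other member was chosen with its values in view. The plan had assumed read counts of 12 libraries, and the same test was used on the estimated counts of 11. Sequence sharing was computed over 50-base windows of the longest coding GENCODE M21 transcript. A result on 1 gene of the supply lists is not reported here.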

Additional observations from a re-analysis of the deposited data

Results flagged for a closer look

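For Ugt3a2 the difference between genotypes ran in opposite directions on the 2 feedings. It had 204, 191 and 151 CPM in LKO-ALD, above 143, 132 and 114 CPM in FLOX-ALD livers. It had 114 and 166 CPM in LKO-NC, below 186, 167 and 168 CPM in FLOX-NC. On NC the gap was narrow, at 165.6 CPM in LKO-NC replicate 2 against 167.3 CPM in FLOX-NC replicate 2. The lower LKO-NC level rests largely on replicate 1. Of all 19014 tested genes, 1207 had every LKO-ALD library above every FLOX-ALD library. For 2646 every LKO-NC library was below every FLOX-NC library. The interaction was 0.80 on the log2 scale and did not pass (edgeR adjusted p 0.52). For Ugt1a8 the effect of diet ran in opposite directions in the 2 genotypes. It had 0.348, 0.065 and 0.041 CPM in LKO-ALD against 0 in both LKO-NC libraries, and 0.338, 0 and 0 CPM in FLOX-ALD against 0.442, 0.62 and 0.486 CPM in FLOX-NC. Its interaction of 8.13 rests on groups at 0, depends on the prior count and did not pass (edgeR adjusted p 0.498), and the gene shares 59.7% of its windows with other genes.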

How the results depend on the processing

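With all libraries edgeR called 9 members for diet averaged over genotypes, and 5 without a filter on low counts (2.87% of all tested genes called). For LKO-ALD against LKO-NC the count was 1, and it was 7 with DESeq2 (8.08% of genes called), 0 with limma voom (0.983%) and 2 with only the 2 groups in the fit (0.13%). For FLOX-ALD against FLOX-NC it was 0, and it was 9 with DESeq2 and 1 without the filter (0.392%) or with limma on log2(FPKM + 1) (0.3%) or log2(FPKM + 0.1) (0.258%). For LKO-ALD against FLOX-ALD, for LKO-NC against FLOX-NC and for the interaction it was 0, and 1 with DESeq2. The cause of these differences was not tested. Leaving out 1 library at a time gave 1 to 11 members for diet averaged over genotypes (0.86% to 7.71% of genes), 0 to 5 for LKO-ALD against LKO-NC (0.0318% to 2.52%), 0 to 1 for FLOX-ALD against FLOX-NC and for LKO-ALD against FLOX-ALD, and 0 for the other comparisons. Fits that left out 1 FLOX or LKO-ALD library called 0.0106% to 0.776% of genes for FLOX-ALD against FLOX-NC. They called 0% to 0.0319% for LKO-ALD against FLOX-ALD, 0.0053% to 0.0213% for LKO-NC against FLOX-NC and 0% to 0.0425% for the interaction. Of 3402 values of named members under other settings, 157 had the opposite sign, none of them past the threshold in either fit.

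The sample titles carry numbers that ALD and NC samples of a genotype share in 5 pairs, and the labels do not say what they mark. The deviations of such pairs from their group means correlated at -0.05 to 0.08 over genes, none above 0.1, and 1 of 5 ALD samples correlated best with the NC sample of its own number, so the samples were not taken as paired. With this number as a replicate block, chosen after seeing the data, edgeR called 2 members for diet averaged over genotypes, Gstm2 and Ugt1a5 (2.73% of genes), 0 for LKO-ALD against LKO-NC (0.0368%), 1 for FLOX-ALD against FLOX-NC, Sult2a1 (0.0631%), and 0 for the interaction. That fit has 3 residual degrees of freedom, and the genotype comparisons share no number. Sult2a1 had 14340, 14 and 22 counts in FLOX-ALD replicates 1, 2 and 3 and 0 in every FLOX-NC library. Its level in FLOX-ALD is thus that of replicate 1, and no block fit was made without that library. Groups of 2 or 3 libraries limit the precision, and so does depth for genes at 0 to 30 counts such as Ugt1a8.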
